A study of Rattus norvegicus with 8 samples.

Results

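Kainate receptors are glutamate-gated cation channels, and their subunits are encoded by Grik1 to Grik5. Together with Neto1 and Neto2, which encode membrane proteins that associate with these channels and alter their gating, they make up the 7 genes described here. They were taken by gene symbol from the 16871 genes of the deposited count table, and all 7 were among the 11372 genes (67.4%) with enough reads to be tested. The choice used no measured value of these genes, although it was made with earlier results of these data known.

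The cells were primary cultures of mixed hippocampal and cortical tissue from P1-P2 Sprague Dawley rat pups, named hippocampal neuron cultures in the labels. BrU-seq reads newly made RNA: cells take up bromouridine (BrU), and RNA that carries it is pulled down by an antibody and sequenced. TT cultures received 1 µM tetrodotoxin (TTX, which blocks voltage-gated sodium channels and so silences action potentials) for 24 h, were kept without drug for 48 h, and then received TTX again for 4 h. TH cultures received TTX and then vehicle (water), HT cultures vehicle and then TTX, and HH cultures vehicle both times. In all 4 groups BrU was present at 2 mM for the last 0.5 h, and each group had 2 libraries. The labels do not say how many pups each culture came from. The question behind the design is whether neurons that were silenced once respond differently when silenced again.

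Kainate receptors are tetramers. GluK1, GluK2 and GluK3, the products of Grik1, Grik2 and Grik3, can form channels on their own. GluK4 and GluK5, the products of Grik4 and Grik5, bind glutamate with high affinity and need a partner from the first set to form a working channel. In the hippocampus these receptors act on both sides of the synapse: they modulate transmitter release and carry slow synaptic currents, above all at the mossy fibre synapse onto CA3 pyramidal cells. Neto1 and Neto2 slow the decay of these currents, and Neto1 is also found with NMDA receptors.

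Total counts ran from 3489176 to 4959887 per library, and each of the 7 genes had between 469 and 6804 reads in every library. Markers of both main neuron classes were present in every library. Gad1, which encodes a GABA-synthesizing enzyme, lay between 198 and 449 CPM (reads scaled to a common library total), and the excitatory neuron gene Camk2a between 230 and 320 CPM. Astrocyte and oligodendrocyte lineage genes were present too, Gfap at 337 to 546 CPM and Pdgfra at 145 to 230 CPM. Microglial genes were scarce, with a list of 10 summing to between 48.4 and 61.5 CPM and Aif1, P2ry12 and Tyrobp at 0 in some libraries.

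HH replicate 1 stood apart from the other 7 libraries in genes that neurons transcribe when they fire. Fos was at 37.0 CPM there and between 5.74 and 11.6 CPM elsewhere, and the neurotrophin gene Bdnf was at 122 CPM against 10.9 to 36.0 CPM. A list of 15 such genes summed to 1583 CPM in HH replicate 1 and to 548 CPM in HH replicate 2. It summed to 545 and 501 CPM in TH libraries, 690 and 509 CPM in HT libraries, and 510 and 466 CPM in TT libraries. HH replicate 2 and both TH libraries thus lay within the range of the libraries given the second TTX. In HT against HH all 15 were below 0 (median log2 change -0.99). In TT against TH 10 were below 0 and 5 above (median -0.12). Comparisons with HH rest in part on HH replicate 1, and values without it are given for many changes of the 7 genes. The counts and medians of gene lists against HH are given with HH replicate 1 included.

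The 300-base windows around the annotated starts of Grik2 and Grik4 are shown as examples. They were picked because, in CPM, Grik2 was highest and Grik4 lowest in HH replicate 1. This was not particular to them, as Grik1, Neto1 and Neto2 were also highest there and Grik5 also lowest. Both windows come from RefSeq (build GRCr8, 250 bases before to 50 after the start, 5′ to 3′ on the strand of the gene). Capitals mark the CRE half-site TGACG, searched on both strands, so that CGTCA is a match too. It is the core of the site bound by the activity-regulated factor CREB.
Grik2 (chr20:54415234-54415533, minus strand): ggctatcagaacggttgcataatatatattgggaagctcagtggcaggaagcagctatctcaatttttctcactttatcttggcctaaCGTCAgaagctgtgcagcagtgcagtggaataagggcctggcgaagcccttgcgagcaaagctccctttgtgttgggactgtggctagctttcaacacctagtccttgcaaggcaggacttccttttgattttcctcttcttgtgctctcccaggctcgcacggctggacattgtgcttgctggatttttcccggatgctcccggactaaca
Grik4 (chr8:52102014-52102313, minus strand): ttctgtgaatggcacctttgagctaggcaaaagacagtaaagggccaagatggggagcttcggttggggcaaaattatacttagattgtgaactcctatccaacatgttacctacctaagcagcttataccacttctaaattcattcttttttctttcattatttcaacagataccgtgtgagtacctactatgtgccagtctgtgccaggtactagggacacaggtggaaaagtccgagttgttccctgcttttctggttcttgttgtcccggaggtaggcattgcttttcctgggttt
Grik2 had 1 half-site in this window, and the windows of the other 6 genes had none. None of the 7 held the full site TGACGTCA, which contains the half-site on both strands. Among all 33469 windows of this length, 21.2% held the half-site and 1.83% the full site. The windows differed widely in base composition, from 44.0% G or C with 4 CpG dinucleotides for Grik4 to 82.3% with 49 for Grik3, against a median of 51.7% and 7 CpG over all windows. Grik2 had 50.3%, Grik1 58.7%, Neto1 60.0%, Grik5 69.0% and Neto2 74.0% G or C. A match in these letters is a description of the window only, and the start in use in these cultures is not known from the counts.

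In none of the 7 comparisons made did any of the 7 genes pass after adjustment. These were the second TTX without and with a TTX history (HT against HH, TT against TH), the TTX history under a second vehicle or a second TTX (TH against HH, TT against HT), the difference between the first pair, and the mean effect of each treatment. All 11372 genes were fitted with edgeR's quasi-likelihood test, and p-values were adjusted over all of them by Benjamini-Hochberg at 0.05. No other gene passed in edgeR, so the background share of called genes was 0% in each comparison. DESeq2 called none of the 7 genes either, and 13 others in the second TTX averaged over history. With HH replicate 2 left out, so that HH replicate 1 alone stood for HH, edgeR called 39 genes in HT against HH, 121 in TH against HH and 104 in the averaged history, none of them among the 7. At an unadjusted p under 0.05, edgeR gave 1 of the 7 genes in HT against HH, against 6.49% of all genes tested, and 1 in TH against HH, against 4.08%. It gave 1 in the interaction, against 1.64%, and 1 in the second TTX averaged over history, against 6.94%. In each of these 4 comparisons the gene was Grik1. In TT against TH, TT against HT and the averaged history none had such a p, with backgrounds of 2.64%, 2.35% and 5.75%. The labels do not say that replicates came from separate cultures, and the p-values therefore rest on a spread between libraries that may be technical.

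**Figure D1:**
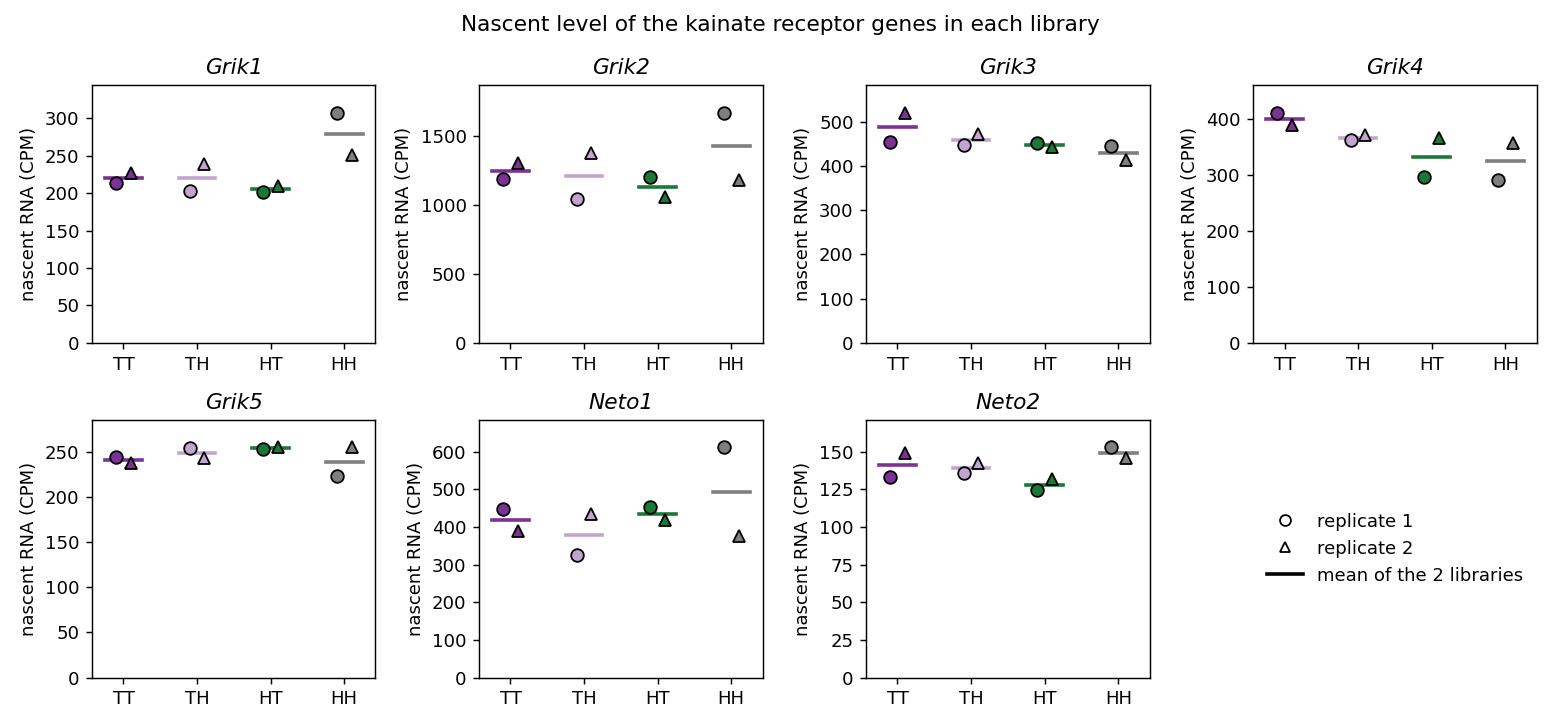
Nascent RNA in CPM (vertical axes from 0) for each of the 7 genes in the 8 libraries, by group (TT, TH, HT, HH); circles are replicate 1, triangles replicate 2, and lines the mean of both. In HH replicate 1, Grik1, Grik2, Neto1 and Neto2 had their highest value and Grik4 and Grik5 their lowest, while Grik5 spanned only 223 to 255 CPM over all libraries.

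The subunits that form channels on their own are taken first. Grik1, whose product is known in hippocampus mainly from interneurons, was at 201 CPM in HT replicate 1 and 209 CPM in HT replicate 2, against 308 and 251 CPM in HH replicates 1 and 2. Both HT libraries thus lay below both HH libraries, a separation that 35.3% of all genes tested showed in either direction. The log2 fold change was -0.44 ± 0.14 (SE, n = 2 per group; edgeR unadjusted p = 0.00841, adjusted p = 0.680), a ratio of 0.735. Without HH replicate 1 the log2 change was -0.29.

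In cultures silenced before, Grik1 had 214 and 226 CPM in TT libraries, against 203 and 239 CPM in TH libraries. The TT values fell between the TH values. The log2 change was -0.0047 ± 0.14, with a 95% confidence interval from -0.31 to 0.30. The 95% interval of HT against HH, from -0.75 to -0.14, overlaps this interval. Without TH replicate 1 the TT against TH change was -0.12 and without TH replicate 2 it was 0.12. The difference between the effects with and without a history, an interaction of 0.44 ± 0.20 on the log2 scale, did not pass (edgeR unadjusted p = 0.0466, adjusted p = 1.00), and it was 0.27 without HH replicate 1. The history gave -0.34 ± 0.14 when vehicle followed (TH against HH, edgeR adjusted p = 0.891) and 0.10 ± 0.14 when TTX followed (TT against HT, edgeR adjusted p = 1.00). The first of these was -0.18 without HH replicate 1. HT against HH, TH against HH and the interaction share the HH libraries.

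Markers of inhibitory neurons were lower on average in HT than in HH, but their summed levels overlapped. A list of 15 of them, 14 in the table, summed to 4213 and 4921 CPM in HT libraries, against 4813 and 7899 CPM in HH libraries, where the highest was HH replicate 1. Of the 13 tested, 10 were below 0 in HT against HH, with a median log2 change of -0.46, against 0.00071 over all genes tested, and none passed (edgeR). Pvalb was at 0 in 4 libraries. Fewer cells of a type and less RNA per cell cannot be told apart in these bulk cultures, and the part of inhibitory neurons in the Grik1 values was not tested. Markers of other cells were higher on average in HT, with none passing (edgeR). Of the 14 oligodendrocyte lineage markers tested, 13 were above 0 in HT against HH (median log2 change 0.55), and 7 of the 14 had an unadjusted p under 0.05. A list of 12 genes of proliferating cells summed to 236 and 301 CPM in HT libraries, against 169 and 168 CPM in HH libraries, without overlap. Of these, 10 were above 0 (median 0.74) and 9 had an unadjusted p under 0.05. In TT against TH, where Grik1 changed by -0.0047, 13 of the 14 oligodendrocyte lineage markers were above 0 (median 0.59). So were all 12 genes of proliferating cells (median 0.44), while 9 of the 13 inhibitory markers were below 0 (median -0.12). The part of these cells in the Grik1 values was not tested.

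Grik2, whose product GluK2 is the principal subunit of kainate receptors in pyramidal and granule cells, had 1191 and 1307 CPM in TT libraries and 1045 and 1377 CPM in TH libraries. It had 1204 and 1058 CPM in HT libraries and 1669 and 1178 CPM in HH libraries. HH replicate 1 was far above HH replicate 2, and every pair of groups overlapped. The other 7 libraries spanned 1045 to 1377 CPM. The log2 change in HT against HH was -0.33 ± 0.20 (edgeR adjusted p = 0.842) with all libraries and -0.055 without HH replicate 1. TT against TH gave 0.045 ± 0.20, TH against HH -0.23 ± 0.20, which turned to 0.043 without HH replicate 1, and TT against HT 0.14 ± 0.20, none of which passed (edgeR adjusted p = 0.901 or more).

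Grik3, whose product GluK3 has low glutamate sensitivity, was steadier. It had 454 and 520 CPM in TT libraries, 447 and 471 CPM in TH libraries, 451 and 443 CPM in HT libraries, and 445 and 413 CPM in HH libraries. TT lay above HT, and TH above HH, with no overlap. The log2 change with a history was 0.12 ± 0.13 in TT against HT and 0.097 ± 0.13 in TH against HH, and neither passed (edgeR adjusted p = 1.00 and 0.942). Without HH replicate 1 the TH against HH value was 0.15.

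Oligodendrocyte lineage markers were highest and lowest in the same groups as Grik3. Their sum over 16 genes was 1377 and 2158 CPM in TT libraries, 1115 and 1410 CPM in TH libraries, 1275 and 1272 CPM in HT libraries, and 919 and 921 CPM in HH libraries, with Mag at 0 in 1 library. TT replicate 2 was highest in both measures and HH replicate 2 was lowest in Grik3. The 3 tested genes whose log2 CPM was most like that of Grik3 over the 8 libraries included Bcas1 (Pearson r = 0.976). Bcas1 is a marker of early oligodendrocytes and is in that list. The others were the growth factor gene Bmp4 (0.982) and the apolipoprotein gene Apod (0.980). All 3 were picked for their high correlation. For the other members the gene so picked first had an r from 0.971 (Grik5) to 0.985 (Neto2). Of the 14 lineage markers tested, 11 were above 0 in TT against HT (median log2 change 0.60, against 0.00040 over all genes) and 13 in TH against HH (median 0.41, against 0.0011), and none passed (edgeR). The markers were also higher in HT against HH (13 of 14 above 0, median 0.55) and in TT against TH (13 of 14, median 0.59). Grik3 overlapped in both of those comparisons, with log2 changes of 0.059 ± 0.13 and 0.086 ± 0.13. The first of these was 0.12 without HH replicate 1. The part of oligodendrocyte lineage cells in the Grik3 values was not tested.

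**Figure D2:**
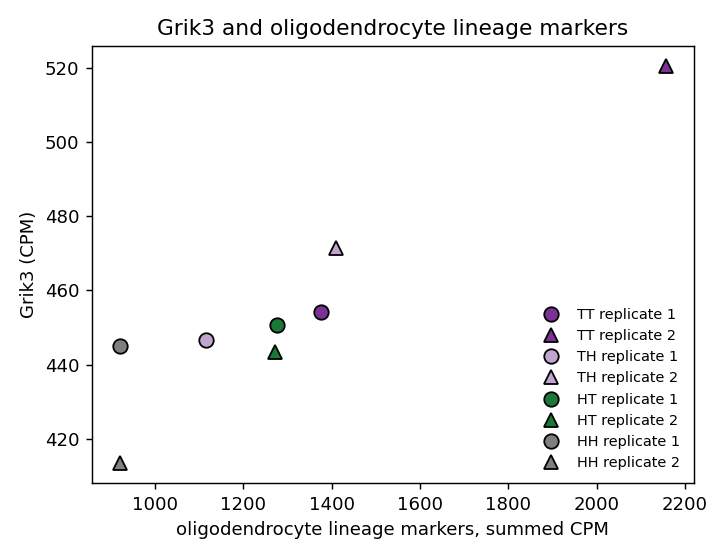
Grik3 in CPM (vertical axis, which does not start at 0) against the summed CPM of 16 oligodendrocyte lineage markers (horizontal axis) in the 8 libraries, coloured by group, with circles for replicate 1 and triangles for replicate 2. TT replicate 2 lies highest on both axes, at 520 and 2158 CPM, and both HH libraries lie at the low end of the marker axis, at 919 and 921 CPM.

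Of the high-affinity subunits, Grik4 varied over a wider range than Grik5. Grik4, known in hippocampus mainly from CA3 pyramidal cells, had 411 and 388 CPM in TT libraries and 361 and 371 CPM in TH libraries. It had 296 and 366 CPM in HT libraries and 291 and 357 CPM in HH libraries. Both TT libraries were above all other libraries, and both TH libraries were above both HH libraries, while HT replicate 2 lay between the TH libraries. The share of all genes with a single group outside all others was not counted. In TH against HH, 30.1% of all genes tested separated in either direction. The log2 change with a history was 0.27 ± 0.15 in TT against HT (edgeR adjusted p = 1.00) and 0.17 ± 0.15 in TH against HH (edgeR adjusted p = 0.901).

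Averaged over the second treatment, the history effect on Grik4 was 0.22 ± 0.11 on the log2 scale, a ratio of 1.17, with a 95% interval from -0.0095 to 0.46 (edgeR unadjusted p = 0.0586, adjusted p = 0.814). The lowest values belonged to HH replicate 1 and HT replicate 1. The activity genes summed highest in the same libraries (1583 and 690 CPM), and a link between these was not tested. Both libraries have a vehicle history, so leaving out these low values lowers the averaged history effect in any case. The averaged value was 0.15 without HH replicate 1 as well as without HT replicate 1, and 0.081 with both left out. The second TTX gave 0.13 ± 0.15 in TT against TH, without overlap, and 0.028 ± 0.15 in HT against HH, which turned to -0.13 without HT replicate 2 and to -0.11 without HH replicate 1. In TH against HH the value was 0.039 without HH replicate 1, and in TT against HT 0.13 without HT replicate 1. Excitatory neuron markers, 9 genes in the table and not particular to CA3 cells, summed to 967 and 1312 CPM in TT libraries, 1175 and 1237 CPM in TH libraries, 1357 and 1452 CPM in HT libraries, and 1303 and 1419 CPM in HH libraries. The part of these cells in the Grik4 values was not tested.

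Grik5, the more widely expressed high-affinity subunit, was the steadiest of the 7 genes. It had 244 and 237 CPM in TT libraries, 254 and 243 CPM in TH libraries, 253 and 255 CPM in HT libraries, and 223 and 255 CPM in HH libraries. Its coefficient of variation over the 8 libraries was 4.63%, against a median of 14.2% over all genes tested. That median was not matched for level, and the mean of Grik5 was above that of 92.6% of genes tested. The highest value of Grik5 was 1.14 times its lowest. Without HH replicate 1 this ratio was 1.07. Its largest log2 change in the 4 pairwise comparisons was 0.088 ± 0.12, in HT against HH, with a 95% interval from -0.18 to 0.36, and it was -0.0023 without HH replicate 1.

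Of the auxiliary subunits, Neto1 had the wider range. Neto1 had 449 and 390 CPM in TT libraries, 327 and 433 CPM in TH libraries, 452 and 417 CPM in HT libraries, and 611 and 376 CPM in HH libraries. The 2 HH libraries were the farthest apart of any group, by 0.70 on the log2 scale, a gap larger than that of 88.3% of tested genes, and one lay above and the other below all HT values. The log2 change in HT against HH was -0.18 ± 0.22 (edgeR adjusted p = 0.910), and it turned to 0.21 without HH replicate 1. In TH against HH it was -0.38 ± 0.22 (edgeR adjusted p = 0.891) and turned to 0.019 without HH replicate 1. TT against TH gave 0.14 ± 0.22, which was -0.053 without TH replicate 1, and TT against HT gave -0.053 ± 0.22.

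Neto2 varied less. It had 134 and 149 CPM in TT libraries, 136 and 142 CPM in TH libraries, 124 and 132 CPM in HT libraries, and 153 and 146 CPM in HH libraries. Both HT libraries were below all the others, and both HH libraries were above both TH libraries. How many of all genes had a single group outside all others was not counted. The log2 change in HT against HH was -0.22 ± 0.12 (edgeR unadjusted p = 0.0892, adjusted p = 0.813), and -0.18 without HH replicate 1. TT against TH gave 0.023 ± 0.12, and the interaction of 0.24 ± 0.17 did not pass (edgeR adjusted p = 1.00).

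**Figure D3:**
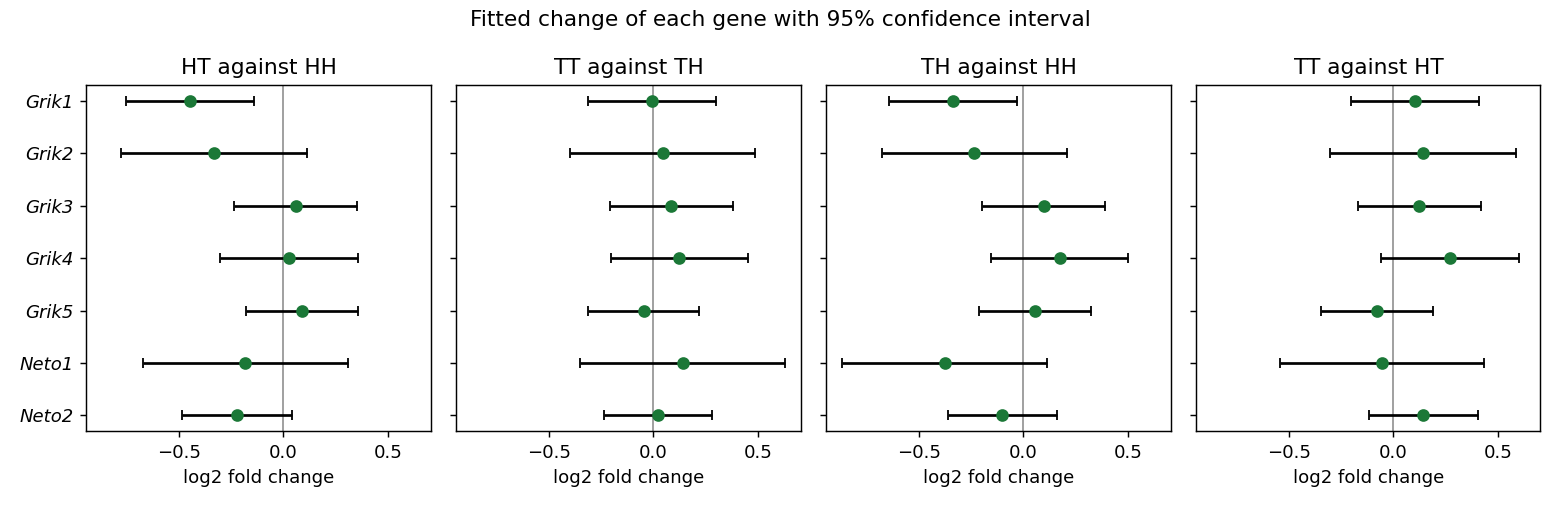
Log2 fold change of the 7 genes (points) with 95% confidence intervals (bars) from the edgeR fit in the 4 pairwise comparisons, 2 libraries per group. The intervals of Grik1 in HT against HH (-0.75 to -0.14) and TH against HH (-0.64 to -0.032) are the ones that leave out 0, before any adjustment for the number of genes tested.

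Set side by side, groups without overlap were common among these genes, as they were over all genes when 2 libraries meet 2. In HT against HH 2 of the 7 genes did not overlap, both lower (Grik1, Neto2), against 35.3% of all genes tested in either direction. In TT against TH it was 1, Grik4, which was higher, against 30%. In TH against HH it was 4, Grik3 and Grik4 higher and Grik1 and Neto2 lower, against 30.1%. In TT against HT it was 5, Grik1, Grik3, Grik4 and Neto2 higher and Grik5 lower, against 34.4%. With 4 libraries on each side, none of the 7 separated the second TTX from the second vehicle, against 4.34% of all genes, and none separated TTX history from vehicle history, against 2.9%. The median log2 change of the 7 genes was -0.18 in HT against HH and 0.045 in TT against TH, against 0.00071 and 0.0040 over all genes. In TT against HT it was 0.12, against 0.00040, and in TH against HH -0.10, against 0.0011. In HT against HH 3 of the 7 lay above 0 and 4 below, and in TT against TH 5 lay above and 2 below. The comparisons share libraries, so these counts are not independent of each other.

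HH replicate 1 held the highest value of 4 of the 7 genes and the lowest of 2, against 21.6% and 22.3% of all genes tested. Leaving it out narrowed the range of Neto1 most. Its highest value was 1.87 times its lowest over 8 libraries, and 1.38 times without HH replicate 1. For Grik2 the same ratio was 1.60 with and 1.32 without that library, and for Grik1 1.53 and 1.25. For Grik3 it was 1.26 either way, and the median over all genes tested, not matched for level, was 1.52 in 8 libraries.

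**Figure D4:**
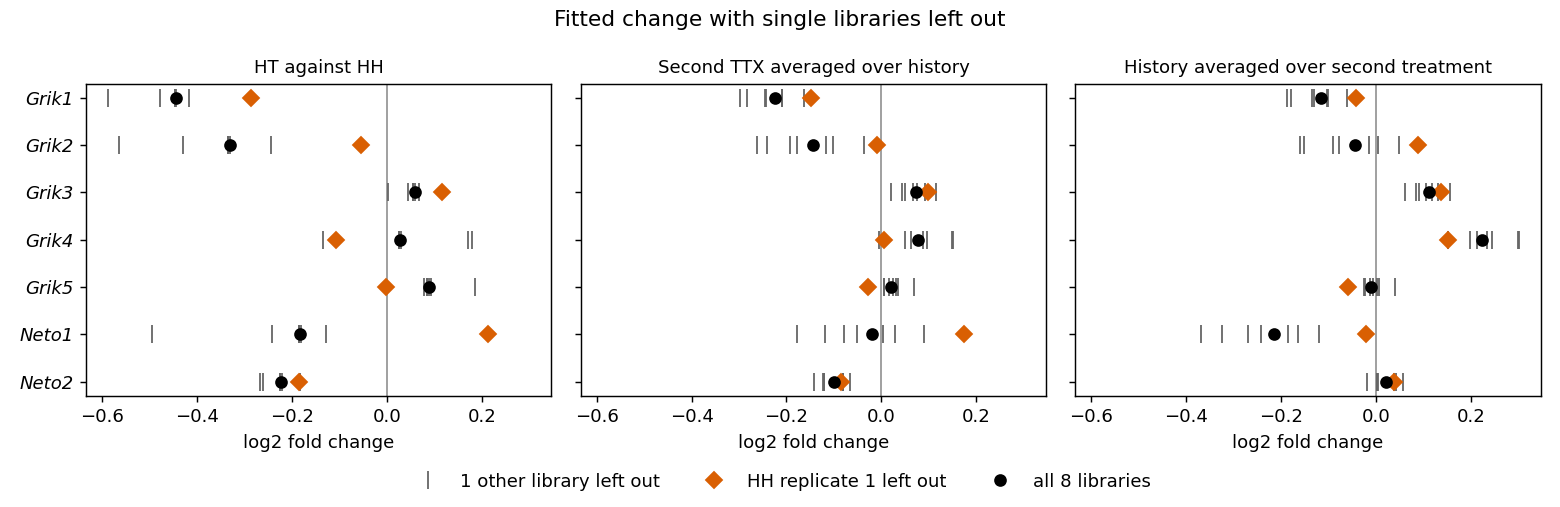
Log2 fold change of each gene with all 8 libraries (black circles), without HH replicate 1 (orange diamonds) and without each of the other libraries in turn (grey ticks), for HT against HH, the second TTX averaged over history and the history averaged over the second treatment. In HT against HH, leaving out HH replicate 1 gives 0.21 for Neto1, against -0.18 with all libraries, and -0.055 for Grik2, against -0.33, while Grik1 and Neto2 lie below 0 in each of these fits.

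The makeup of the Grik reads within a library does not depend on how libraries are scaled. Reads also grow with gene length, so these shares say nothing of how many transcripts each gene made relative to another, only how the makeup differs between libraries. Grik2 took between 45.2% and 51.0% of the reads of Grik1 to Grik5 in 7 libraries, and 56.8% in HH replicate 1. Grik4 took between 12.3% and 16.3% in those 7 libraries and 9.93% in HH replicate 1, where Grik5 was also lowest, at 7.58% against 8.86% to 11.0%. For the other 2 genes the shares of both HH libraries lay outside those of the TT, TH and HT libraries. Grik1 took 8.36% to 8.98% in the TT, TH and HT libraries, against 10.5% and 10.2% in HH replicates 1 and 2. Grik3 took 17.5% to 19.4% in the TT, TH and HT libraries, against 15.2% and 16.8% in HH replicates 1 and 2. Shares are parts of a whole, so a larger Grik2 share lowers the rest. In CPM, Grik3 was at 445 in HH replicate 1, between the HT values of 451 and 443, and at 413 in HH replicate 2. The reads of the high-affinity pair Grik4 and Grik5 over those of Grik1, Grik2 and Grik3 came to 0.352 and 0.304 in TT libraries, 0.363 and 0.294 in TH libraries, 0.296 and 0.363 in HT libraries, and 0.212 and 0.332 in HH libraries. All 4 groups overlapped in this ratio, with HH replicate 1 below all others. For the auxiliary pair, Neto1 over Neto2 was 3.36 and 2.61 in TT libraries, 2.40 and 3.04 in TH libraries, 3.63 and 3.17 in HT libraries, and 4.00 and 2.58 in HH libraries. Both HT libraries were above both TH libraries in it, and the HH libraries held its highest value and one of its lowest.

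**Figure D5:**
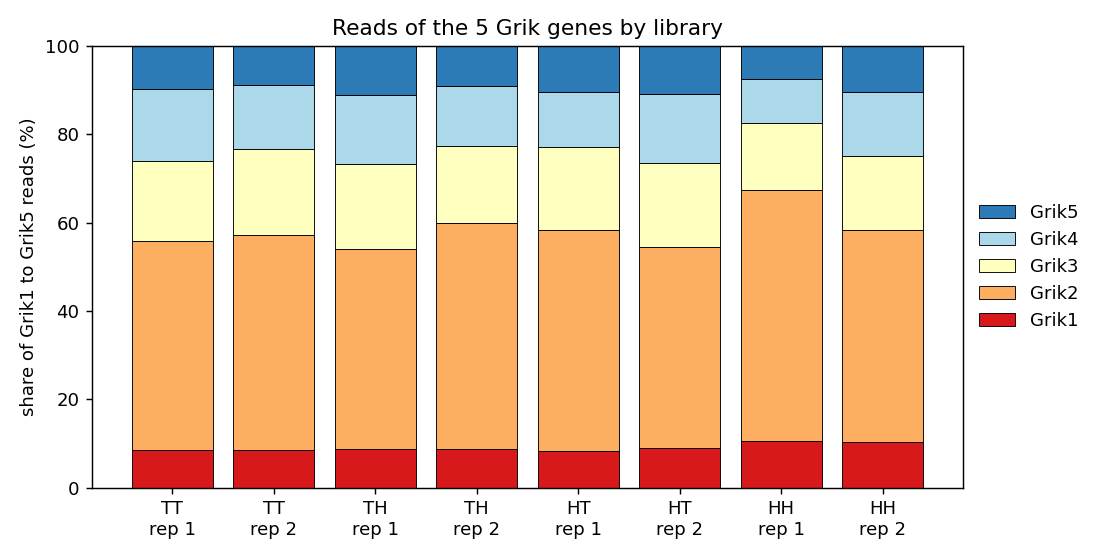
Share of the reads of Grik1 to Grik5 (vertical axis, percent) taken by each gene in the 8 libraries, in the order TT, TH, HT, HH. HH replicate 1 has the largest Grik2 share (56.8%) and the smallest Grik4 (9.93%) and Grik5 (7.58%) shares.

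Summed over the 5 Grik genes, nascent reads came to 2514 and 2679 CPM in TT libraries, 2310 and 2700 CPM in TH libraries, 2405 and 2331 CPM in HT libraries, and 2936 and 2454 CPM in HH libraries. Both HT sums were below both HH sums, and the TT sums lay between the TH sums.

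Genes whose log2 CPM was most like that of a member over the 8 libraries are given as a description; all share the same libraries. For Grik2 these were Fstl5 (Pearson r = 0.983), the postsynaptic scaffold gene Frmpd4 (0.976) and the huntingtin gene Htt (0.976). For Neto1 they were the myosin gene Myo5a (0.982), Casc4 (0.981) and Spry1, a feedback inhibitor of growth factor signalling (0.980). For Grik1 they were Iqcb1 (0.980), the proteasome gene Psmd14 (0.979) and Rsl1d1 (0.971). For Grik4 they were the mannosidase gene Man1c1 (0.983), the von Willebrand factor gene Vwf (0.972) and Yae1d1 (0.967). For Grik5 they were Mapk3, which encodes the kinase ERK1 (0.971), Atn1 (0.968) and Smim20 (0.959), and for Neto2 Lrig2 (0.985), the transcription factor gene Pou2f1 (0.956) and Arid4b (0.952). Without HH replicate 1 the first of each was 0.968 for Grik2, 0.973 for Neto1, 0.935 for Grik1, 0.978 for Grik4, 0.908 for Grik5 and 0.978 for Neto2, and the lowest of all was Smim20 with Grik5, at 0.866.

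Proteins known to bind, sort or modify kainate receptor subunits were followed as a list of 22 symbols, of which 19 were tested and none passed in any comparison (edgeR). In HT against HH 6 were above 0 and 13 below, with a median log2 change of -0.097, against 0.00071 over all genes. The smallest p belonged to Nrxn3, a presynaptic adhesion gene (-0.62 ± 0.20, edgeR adjusted p = 0.680). Snap25, a vesicle fusion gene whose product binds GluK5 (-0.57 ± 0.27), the scaffold gene Dlg1 (-0.28 ± 0.14) and Sdcbp, which encodes the PDZ protein syntenin (-0.25 ± 0.15), followed. In TT against TH 11 were above 0 and 8 below, with a median of 0.027. In the averaged second TTX, the smallest p belonged to Nrxn3 (-0.41 ± 0.14), Snap25 (-0.35 ± 0.19), the beta-catenin gene Ctnnb1 (0.12 ± 0.090) and the profilin gene Pfn2 (-0.13 ± 0.10), with edgeR adjusted p of 0.509 or more. For the history averaged over the second treatment, 5 were above 0 and 14 below (median -0.098). The smallest p there belonged to C1ql3, named after its values were seen, which encodes a secreted C1q-like protein that binds kainate receptor subunits. Its log2 change was -0.68 ± 0.18 in the averaged history (edgeR unadjusted p = 0.00332, adjusted p = 0.814), -0.69 ± 0.26 in TT against HT and -0.67 ± 0.26 in TH against HH. The list summed to 11329 and 12513 CPM in HT libraries, against 12949 and 17055 CPM in HH libraries.

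The other glutamate receptor genes, those of AMPA, NMDA, delta and metabotropic receptors, gave 18 tested of 20, none of which passed in any comparison (edgeR). In HT against HH 2 lay above 0 and 16 below, with a median log2 change of -0.19, and in TH against HH the counts were the same with a median of -0.19. In TT against TH 6 lay above 0 and 12 below (median -0.041), and in TT against HT 8 and 10 (median -0.0087). Their sum was 11525 to 12087 CPM in HT libraries, against 12176 to 15255 CPM in HH libraries, where the higher value was again HH replicate 1.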

How the data were processed

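Whole-number read counts per gene symbol, 1 column for each of the 8 libraries, were deposited by the authors without normalization. The submitters' processing notes name featureCounts, TopHat2, Bowtie2 and FastQC, and build rn6. How reads were assigned (annotation, strand setting, intronic reads) is not given in the sources used here. Most nascent RNA still holds its introns, so leaving them out would lower the counts of long genes. RefSeq (GRCr8) places other loci, absent from the count table, within Grik1, Grik2, Grik3, Grik4 and Neto1, and their reads may not be told apart. Columns were assigned through the leading number of the sample descriptions, and 2 columns without a matching sample were left unused.

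Counts were filtered (filterByExpr), scaled by TMM and fitted in edgeR 4.0.16 (R 4.3.3) as 4 group means, with the robust quasi-likelihood test. The SE was taken as the size of the log2 change divided by the root of its F statistic, and rests on the spread within all 4 groups. Log2 CPM used a prior count of 2. DESeq2 1.42.0 was an alternative. The step was tested on simulated data, in which part of the smaller changes went uncalled and false calls ran somewhat above the nominal share. Replicates differed by more than sampling noise (chi-square test), so none was merged as a library deposited more than once; this does not show that they came from separate cultures. The labels give no batch. The 7 genes were named in every comparison, with the 3 genes of highest Pearson correlation and the 4 partners of smallest p in HT against HH and in the averaged second TTX. One of the partner genes is not reported here. Members and lists were chosen with earlier results of these data known. Figures used matplotlib 3.10.9 in Python 3.11.15.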

Additional observations from a re-analysis of the deposited data

Results flagged for a closer look

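Among 28 sets of 4 libraries examined (each gene in the libraries sharing a first or a second treatment), 2 held a library far from the rest; chance alone gives about 1 in 20. Grik3 in TT replicate 2, at 520 CPM, lay apart from the other libraries given the second TTX, with a gap of 0.859 of their range. Grik5 in HH replicate 1, at 223 CPM, lay apart from the other libraries with a vehicle history, with a gap of 0.933 of their range.

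For 2 genes the libraries separated by history in opposite directions with and without the second TTX. Both TT libraries were above both HT libraries, and both TH libraries below both HH libraries, for Grik1 and for Neto2. In either direction, 34.4% of all genes tested separated in TT against HT and 30.1% in TH against HH. The share of all genes that separated in opposite directions was not counted. The interaction, which tests whether the history effect differs with the second TTX, was 0.44 for Grik1 (edgeR adjusted p = 1.00). It was 0.24 for Neto2 (edgeR adjusted p = 1.00), and neither passed.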

How the results depend on the processing

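Of 665 recomputed log2 changes of the 7 genes, 618 kept their direction without passing, 47 turned direction and none passed; none of the 7 was called under any alternative, so that the count of 0 members ran from 0 to 0 without single libraries. With single libraries left out, genes called ran from 0 to 39 in HT against HH, 0 to 121 in TH against HH, 0 to 1 in TT against TH, 0 to 0 in TT against HT, 0 to 2 in the interaction, 0 to 8 in the averaged second TTX and 0 to 104 in the averaged history. Apart from TT against HT, the highest of each came without HH replicate 2, or without TH replicate 2 in TT against TH. In the averaged second TTX, DESeq2 called 13 genes and edgeR without a low-count filter 16, against 0. The cause was not tested. DESeq2 size factors shifted the median of all genes by at most 0.010.

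Log2 changes that turned direction ran, with 1 library left out, as follows. In HT against HH, Grik4 ran from -0.13 to 0.18, Grik5 from -0.0023 to 0.19 and Neto1 from -0.49 to 0.21. In TT against TH, Grik1 ran from -0.12 to 0.12, Grik2 from -0.15 to 0.26, Grik3 from -0.014 to 0.17, Neto1 from -0.053 to 0.36 and Neto2 from -0.059 to 0.092. In TH against HH, Grik2 ran from -0.46 to 0.043, Grik5 from -0.033 to 0.16 and Neto1 from -0.69 to 0.019. In TT against HT, Neto1 ran from -0.16 to 0.049. In the interaction, Grik3 ran from -0.070 to 0.12, Grik4 from -0.056 to 0.26 and Neto1 from -0.079 to 0.63. In the averaged second TTX, Grik4 ran from -0.0056 to 0.15, Grik5 from -0.027 to 0.069 and Neto1 from -0.18 to 0.17. In the averaged history, Grik2 ran from -0.16 to 0.090, Grik5 from -0.058 to 0.040 and Neto2 from -0.018 to 0.057.

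With HH replicate 1 and HT replicate 1 both left out, chosen after seeing the data, HH and HT hold 1 library each, whose spread is taken from TH and TT. Neto1 turned to 0.15 in HT against HH, 0.0022 in TT against HT, 0.019 in TH against HH, -0.017 in the interaction, 0.14 in the averaged second TTX and 0.011 in the averaged history. Grik2 turned to 0.043 in TH against HH and 0.14 in the averaged history, Grik5 to -0.033 in TH against HH and -0.026 in the averaged second TTX, and Grik3 to -0.021 in the interaction.

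Replicate numbers are shared across groups, but the deviations of same-numbered libraries correlated at 0.45 between HH and HT and between -0.066 and 0.087 in the other pairs. Same-numbered libraries thus deviated together in HH and HT alone, and the labels do not say what a number marks, so that it was not taken to pair the samples. With the replicate number as a block, 0 genes were called in each comparison.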
